A study of Homo sapiens with 6 samples.

Results

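The 10 genes described here, TFAM, TFB1M, TFB2M, POLRMT, TEFM, POLG, TWNK, LRPPRC, SLIRP and PNPT1, encode nuclear-made proteins that copy, transcribe and look after the mitochondrial genome. They were taken by gene symbol from the 46427 genes listed for each library, and all 10 passed the filter on low values (1 FPKM on average across the 6 libraries). The label of the set speaks of transcription and RNA stability, but POLG and TWNK are replication enzymes and TFB1M is best known as a methyltransferase of ribosomal RNA. RNA was measured in wild-type K562 cells, an erythroleukemia line from a chronic myeloid leukemia that carries the BCR-ABL1 fusion. One group of 3 libraries came from cells given 10 µM HR-19011 for 24 h, a compound that the series title calls a squaramide derivative and ties to the integrated stress response. The other 3 libraries came from cells given 0.1% DMSO as vehicle for 24 h; the labels state no DMSO percentage for the HR-19011 libraries, so any difference in DMSO cannot be told apart from the compound. Nothing in the labels tells whether each library had its own culture; the p-values then reflect library-to-library spread, possibly technical.

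The mitochondrial genome is a small circle read from both strands into long precursor RNAs, which are cut into messenger, ribosomal and transfer RNAs. The RNA polymerase POLRMT starts at promoters with the packaging protein TFAM and the melting factor TFB2M, and TEFM keeps it moving. The LRPPRC-SLIRP complex then keeps the messengers stable and polyadenylated, and PNPT1 degrades RNA with the helicase SUPV3L1. POLG, with the accessory subunit POLG2, and the helicase TWNK copy the DNA itself.

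All 10 genes were lower in HR-19011 than in vehicle cells. SLIRP, TWNK, PNPT1, TFB2M and TFAM fell by at least 1 on the log2 scale, whereas POLG and TEFM fell by under 0.3. Log2 fold changes here are differences of log2(FPKM + 1), where FPKM is fragments per kilobase of transcript, scaled to the fragments mapped in each library, and each gene was tested with limma, with p-values adjusted over all 11856 tested genes and a threshold of 0.05. Of these tested genes 84.4% were called in either direction, 46.4% higher and 38.0% lower, against 10 of 10 members lower. A called change of 2-fold or more on that scale was seen in 18.5% of tested genes, 1427 higher and 765 lower of 11856. It was seen in 5 of the 10 members, all lower. The median log2 fold change was -0.92 over the members and 0.07 over all tested genes. The values of the HR-19011 and vehicle libraries did not overlap for 9 members, against 85.2% of all tested genes; TEFM was the exception. Because RNA was taken from bulk cultures, fewer cells of a type and less RNA per cell cannot be told apart.

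**Figure D1:**
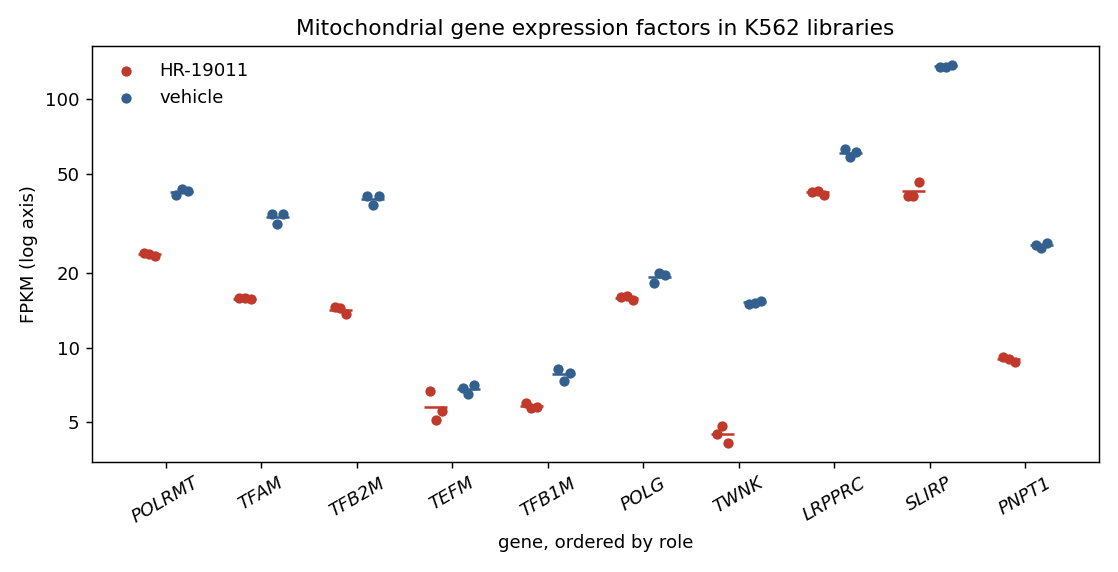
FPKM of the 10 genes on a log axis, with a point for each library (3 HR-19011, 3 vehicle) and a bar at the group mean. HR-19011 points lie below vehicle points for every gene except TEFM, where HR-19011 library 1 (6.67 FPKM) lies above vehicle library 2 (6.53 FPKM).

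Sums over all listed genes were 423885 ± 3632 FPKM in HR-19011 and 461938 ± 5487 FPKM in vehicle libraries (SD, n = 3 each), and the depth behind them is unknown. Among tested genes, higher calls made up 55.0% of all calls as deposited, 40.8% after TMM scaling, which trims extreme genes, and 64.7% after conversion to TPM, which sets each library to the same total. The filter at 1 TPM let more genes into the test, 13422 against 11856 as deposited. Deposited values without a filter gave 64.4% higher calls over 26374 tested genes. The parts of scaling and of the larger gene set in the TPM share were not tested apart. TMM moved the median over tested genes by -0.21, from 0.07 to -0.14. Its factors were set on all genes with nonzero values, including those below the filter. Quantile normalization moved the median by -0.13 and TPM, with its larger gene set, by 0.16. K562 identity was checked on 11 erythroleukemia markers, all at or above 1 FPKM; 10 of them fell and none rose, and their summed level was 4345 to 4569 FPKM in HR-19011 and 9993 to 10172 FPKM in vehicle libraries. Of 8 markers of other lineages, 7 were below 1 FPKM, MS4A1 and INS were listed at 0 in all libraries, and the epithelial adhesion gene EPCAM stood at 20.3 FPKM in HR-19011 and 32.5 FPKM in vehicle cells. The part of the fall in erythroid markers in the results below was not tested.

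Of the 3 factors that start mitochondrial transcription, TFB2M fell most. TFB2M, which melts the promoter DNA for the polymerase, had 14.5, 14.4 and 13.7 FPKM in HR-19011 libraries, against 40.8, 37.5 and 40.9 FPKM in vehicle libraries. Every HR-19011 value was below every vehicle value. TFB2M fell 2.80-fold, a log2 fold change of -1.42 (SE 0.0433, limma adjusted p = 4.74e-09). TFAM, which packages mitochondrial DNA and bends its promoters, had 15.8, 15.8 and 15.7 FPKM in HR-19011 libraries, against 34.3, 31.4 and 34.5 FPKM in vehicle libraries. Its HR-19011 values were the tightest of any member in either group, with a coefficient of variation of 0.230%, against 5.19% in vehicle libraries. TFAM fell 2.12-fold (log2 fold change -1.04, SE 0.0408, limma adjusted p = 2.29e-08). POLRMT, the single-subunit polymerase itself, had 24.0, 23.8 and 23.4 FPKM in HR-19011 libraries, against 41.0, 43.6 and 42.6 FPKM in vehicle libraries. The groups lay well apart, and POLRMT fell 1.79-fold (log2 fold change -0.81, SE 0.0323, limma adjusted p = 2.42e-08). A pseudogene named after it, POLRMTP1, stood at 0.790 ± 0.134 FPKM in HR-19011 and 1.237 ± 0.111 FPKM in vehicle cells (SD, n = 3 each), and the sources used here do not tell how shared reads were assigned.

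The promoters of these 3 genes and of TFB1M are shown because each holds a match to a motif of nuclear respiratory factor 1, a regulator long known to act on mitochondrial genes. They are RefSeq sequences on GRCh38.p14, from 250 bases before to 50 bases after the start, read 5′ to 3′ on each gene's strand. Capitals mark matches on either strand to GCGCANGCG (nuclear respiratory factor 1) or CCGGAAG (the ETS family, which includes GABP). TFAM lies on chromosome 10, plus strand (promoter chr10:58385160-58385459), TFB2M on chromosome 1, minus strand (chr1:246566212-246566511), POLRMT on chromosome 19, minus strand (chr19:633488-633787), and TFB1M on chromosome 6, minus strand (chr6:155314435-155314734).
TFAM: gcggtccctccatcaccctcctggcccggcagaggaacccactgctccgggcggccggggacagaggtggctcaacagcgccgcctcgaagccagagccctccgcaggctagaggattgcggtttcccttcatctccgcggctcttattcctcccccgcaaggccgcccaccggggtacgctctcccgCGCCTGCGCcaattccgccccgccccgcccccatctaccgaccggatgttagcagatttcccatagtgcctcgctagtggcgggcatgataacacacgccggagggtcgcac
TFB2M: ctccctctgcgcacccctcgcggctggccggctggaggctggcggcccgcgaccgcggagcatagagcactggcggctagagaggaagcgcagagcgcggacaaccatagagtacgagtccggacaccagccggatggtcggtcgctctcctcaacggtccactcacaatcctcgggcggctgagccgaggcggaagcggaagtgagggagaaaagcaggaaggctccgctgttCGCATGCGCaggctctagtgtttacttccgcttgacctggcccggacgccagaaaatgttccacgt
POLRMT: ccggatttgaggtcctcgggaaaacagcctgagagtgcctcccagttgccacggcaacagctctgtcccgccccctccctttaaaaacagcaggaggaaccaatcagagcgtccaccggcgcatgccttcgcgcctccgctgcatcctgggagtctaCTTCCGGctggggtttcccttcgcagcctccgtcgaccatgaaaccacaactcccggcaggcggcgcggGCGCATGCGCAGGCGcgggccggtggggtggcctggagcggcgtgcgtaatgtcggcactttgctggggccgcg
TFB1M: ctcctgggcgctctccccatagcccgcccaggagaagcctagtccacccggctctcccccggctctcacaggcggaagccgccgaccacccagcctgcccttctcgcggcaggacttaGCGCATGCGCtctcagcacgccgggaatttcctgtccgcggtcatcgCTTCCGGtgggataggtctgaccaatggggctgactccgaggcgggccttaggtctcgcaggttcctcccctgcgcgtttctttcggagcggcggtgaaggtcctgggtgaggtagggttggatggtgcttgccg

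The respiratory factor motif began 62 bases before the start in TFAM, 16 before it in TFB2M and 24 before it in POLRMT, where 3 matches overlap. In TFB1M it began 132 bases before the start, where 2 matches on opposite strands overlap. RefSeq promoters were found for 9 members, TWNK not being among them. The motif was present in 4 of these 9, against 8.05% of 27305 promoters of the same length and 16.6% of the 8992 promoters of tested genes. The ETS motif was also in 4 of 9 (TFB1M, POLRMT, TEFM and SLIRP), against 10.7% of all promoters and 21.96% of those of tested genes. The YY1 motif AAGATGGC was in SLIRP alone, on both sides of its start, against 3.03% of all promoters and 6.14% of those of tested genes. No member promoter held TGATGNAA, an ATF4 composite element found in 3.67% of all promoters and 1.62% of those of tested genes. The E-box CACGTG, found in 7.43% of all promoters and 10.8% of those of tested genes, was in none of the 9 either. With 9 promoters and shares this low, the absence of either motif says little. These are matches of letters, not sites shown to be bound. Of the factors themselves, named here for their motifs and not by the rule for named genes, NRF1 stood at 5.21 ± 0.188 FPKM in HR-19011 and 8.06 ± 0.197 FPKM in vehicle cells (SD, n = 3 each) and was called lower. GABPA was not called, at 8.35 ± 0.331 FPKM in HR-19011 and 7.72 ± 0.553 FPKM in vehicle cells.

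TEFM, the elongation factor that helps POLRMT through long stretches, moved least in the values as deposited. It had 6.67, 5.12 and 5.54 FPKM in HR-19011 libraries, against 6.91, 6.53 and 7.10 FPKM in vehicle libraries. HR-19011 library 1 overlapped the vehicle range, and the coefficient of variation was 13.8% in HR-19011 against 4.24% in vehicle libraries, the widest of the 10 genes. The log2 fold change was -0.22 (SE 0.0793, 95% interval -0.40 to -0.04, limma adjusted p = 0.0298). That call was lost without HR-19011 library 2 (log2 fold change -0.15, limma adjusted p = 0.107), HR-19011 library 3 (-0.19, 0.0802), vehicle library 1 (-0.21, 0.0719) or vehicle library 3 (-0.19, 0.0848). It was also lost after conversion to TPM (limma adjusted p = 0.240), with equal totals without the 100 highest genes (0.0728) and without a filter (0.0969). POLG moved less than TEFM under quantile normalization (log2 fold change -0.26 against -0.40) and without HR-19011 library 1 (-0.27 against -0.31).

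TFB1M, the paralog of TFB2M that methylates the small mitochondrial ribosomal RNA, had 6.01, 5.74 and 5.75 FPKM in HR-19011 libraries, against 8.20, 7.33 and 7.92 FPKM in vehicle libraries. The groups did not overlap, and TFB1M fell 1.34-fold (log2 fold change -0.37, SE 0.0488, limma adjusted p = 9.15e-05). The ratio of TFB2M to TFB1M, in FPKM per FPKM, was 2.41, 2.51 and 2.38 in HR-19011 libraries, against 4.98, 5.11 and 5.16 in vehicle libraries. The TFB2M transcript thus exceeded that of TFB1M by less in HR-19011 cells, at 2.43 ± 0.0686 against 5.08 ± 0.0908 in vehicle cells (SD, n = 3 each). This and the other ratios are given as a description, without a test. A factor that scales a whole library leaves such a ratio unchanged.

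**Figure D2:**
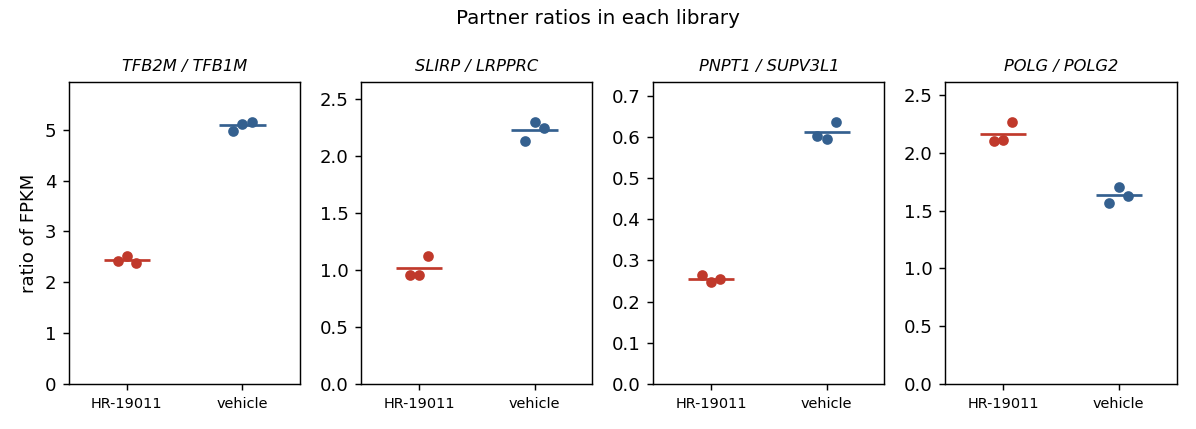
Ratio of FPKM of 4 pairs of partner or paralog genes in each library, on axes from 0, with a bar at the mean of 3 HR-19011 or 3 vehicle libraries. TFB2M to TFB1M, SLIRP to LRPPRC and PNPT1 to SUPV3L1 are lower in every HR-19011 library, and POLG to POLG2 is higher.

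Of the 2 replication enzymes, TWNK fell strongly and POLG little. TWNK, the helicase that unwinds mitochondrial DNA, had 4.50, 4.84 and 4.15 FPKM in HR-19011 libraries, against 14.99, 15.1 and 15.4 FPKM in vehicle libraries. It was the lowest of the 10 genes in HR-19011 cells, and the eighth in vehicle cells. TWNK fell 3.38-fold (log2 fold change -1.56, SE 0.0513, limma adjusted p = 7.40e-09), and only 169 of the 11856 tested genes had a lower log2 fold change. Next to its start on the other strand, with no overlap in RefSeq, lies MRPL43, a mitochondrial ribosomal protein gene, which stood at 16.4 ± 0.950 FPKM in HR-19011 and 23.4 ± 0.550 FPKM in vehicle cells (SD, n = 3 each). In GENCODE 29 MRPL43 overlaps TWNK over 149 bases. POLG, the catalytic subunit of the DNA polymerase, had 16.1, 16.2 and 15.5 FPKM in HR-19011 libraries, against 18.2, 20.01 and 19.7 FPKM in vehicle libraries. The groups did not overlap, though the gap was narrow, and POLG fell 1.21-fold (log2 fold change -0.26, SE 0.0426, limma adjusted p = 0.000352). In RefSeq POLG overlaps the DNA repair gene FANCI on the other strand over 940 bases, and in GENCODE 29, whose gene models differ, over 12064 bases. FANCI stood at 35.7 ± 1.10 FPKM in HR-19011 and 37.7 ± 1.17 FPKM in vehicle cells (SD, n = 3 each). The libraries were stranded, but the sources used here do not tell whether counting used strand. That leaves POLG values uncertain to that extent, and with the GENCODE 29 models TWNK values too.

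The partners of these enzymes fell more than POLG. POLG2, the accessory subunit that holds POLG on DNA, stood at 7.38 ± 0.472 FPKM in HR-19011 and 11.8 ± 0.241 FPKM in vehicle cells (SD, n = 3 each; log2 fold change -0.61). SSBP1, which coats single-stranded mitochondrial DNA, stood at 166 ± 3.82 FPKM in HR-19011 and 290.4 ± 9.90 FPKM in vehicle cells (log2 fold change -0.80). The ratio of POLG to POLG2 was 2.0995, 2.11 and 2.27 in HR-19011 libraries, against 1.57, 1.70 and 1.63 in vehicle libraries. It was therefore higher in each HR-19011 library, unlike the other ratios computed.

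Transcripts of the LRPPRC-SLIRP complex fell unevenly. SLIRP, the small RNA-binding partner, had 40.8, 40.9 and 46.5 FPKM in HR-19011 libraries, against 134.9, 134.2 and 137.4 FPKM in vehicle libraries. SLIRP had the lowest log2 fold change of the 10 genes as deposited, at -1.65 (SE 0.0484, limma adjusted p = 3.89e-09). It fell 3.17-fold, and only 131 tested genes had a lower log2 fold change. The order of SLIRP and TWNK depended on the settings. By the ratio of mean FPKM values TWNK fell more, 3.38-fold. TWNK also had the lower log2 fold change with a pseudocount of 0.1, after conversion to TPM and under quantile normalization. SLIRP had the lower one with a pseudocount of 5 and under TMM scaling. For SLIRP, HR-19011 library 3 stood above the other 2 of its group but far below vehicle. LRPPRC, the pentatricopeptide repeat protein that carries SLIRP, had 42.5, 42.6 and 41.3 FPKM in HR-19011 libraries, against 63.2, 58.3 and 61.1 FPKM in vehicle libraries. The groups were apart, and LRPPRC fell 1.44-fold (log2 fold change -0.52, SE 0.0350, limma adjusted p = 8.03e-07). The ratio of SLIRP to LRPPRC was 0.960, 0.960 and 1.12 in HR-19011 libraries, against 2.14, 2.30 and 2.25 in vehicle libraries. SLIRP and LRPPRC values thus overlapped in HR-19011 cells, whereas SLIRP was above LRPPRC in every vehicle library. In RefSeq SLIRP (GRCh38.p14, chr14:77708071-77717598) overlaps neither neighbour on the other strand, SNW1 past its end and ALKBH1, a DNA and RNA demethylase gene, before its start. GENCODE 29 has a longer SLIRP model that overlaps SNW1 over 43506 bases, and with such a model SLIRP values would be uncertain in the same way as those of POLG. SNW1 stood at 32.3 ± 0.896 FPKM in HR-19011 and 36.0 ± 1.64 FPKM in vehicle cells, and ALKBH1 at 3.41 ± 0.0892 FPKM in HR-19011 and 5.55 ± 0.241 FPKM in vehicle cells (SD, n = 3 each).

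PNPT1, a polynucleotide phosphorylase that degrades mitochondrial RNA, had 9.196, 9.01 and 8.76 FPKM in HR-19011 libraries, against 25.9, 25.1 and 26.4 FPKM in vehicle libraries. The groups were far apart, and PNPT1 fell 2.87-fold (log2 fold change -1.43, SE 0.0361, limma adjusted p = 1.67e-09). Its partner helicase SUPV3L1 stood at 35.2 ± 1.06 FPKM in HR-19011 and 42.3 ± 0.779 FPKM in vehicle cells (SD, n = 3 each; log2 fold change -0.26). The ratio of PNPT1 to SUPV3L1 was 0.266, 0.248 and 0.254 in HR-19011 libraries, against 0.602, 0.594 and 0.637 in vehicle libraries. The nuclease was thus the scarcer transcript of the pair in every library, and more so after HR-19011. MTPAP, the polymerase that adds tails to mitochondrial messengers, stood at 4.26 ± 0.144 FPKM in HR-19011 and 7.504 ± 0.385 FPKM in vehicle cells (log2 fold change -0.69).

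**Figure D3:**
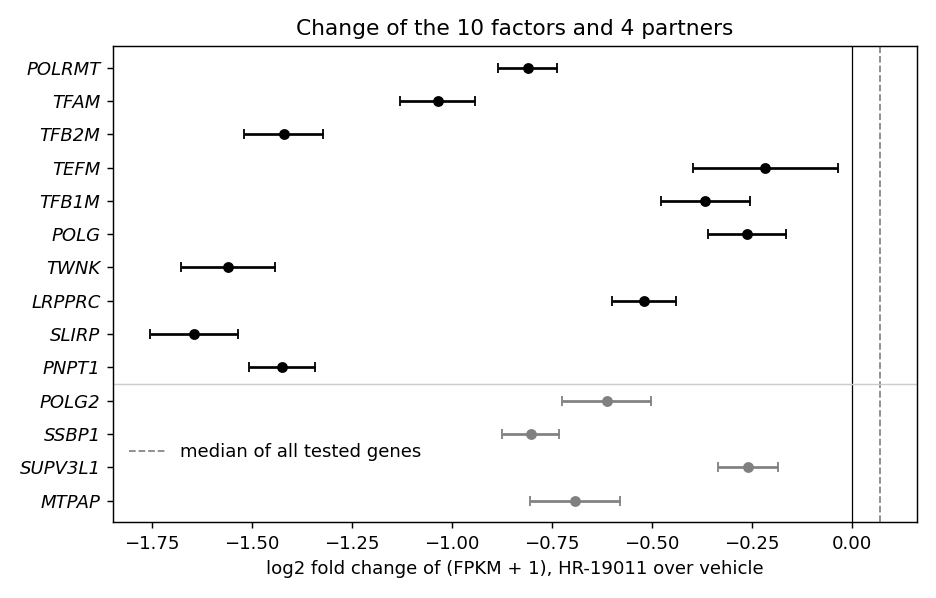
Log2 fold change of FPKM + 1, HR-19011 over vehicle, with its 95% interval from the limma fit, for the 10 genes (black) and 4 partners (grey). The dashed line is the median of all tested genes at 0.07; every interval lies below 0, and the interval of TEFM reaches -0.04.

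In order of level, SLIRP, LRPPRC and POLRMT stood highest in both groups. In HR-19011 cells the order went on with POLG, TFAM, TFB2M, PNPT1, TFB1M, TEFM and TWNK, and ranges overlapped between SLIRP and LRPPRC, between POLG and TFAM, and between TFB1M and TEFM. In vehicle cells it went on with TFB2M, TFAM, PNPT1, POLG, TWNK, TFB1M and TEFM, with no overlap between neighbours. The highest member was 9.50 times the lowest in HR-19011 cells and 19.8 times the lowest in vehicle cells.

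All 10 genes stayed lower under each of the 6 scalings, and the size of the smaller changes depended on the scaling. The POLG log2 fold change was -0.15 after conversion to TPM and -0.49 after TMM scaling, and that of TFB1M was -0.28 and -0.58. With equal totals outside mitochondrially encoded and globin transcripts, whose share differed between the groups, the members' values differed little from those as deposited, for example -1.65 for SLIRP and -0.22 for TEFM.

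**Figure D4:**
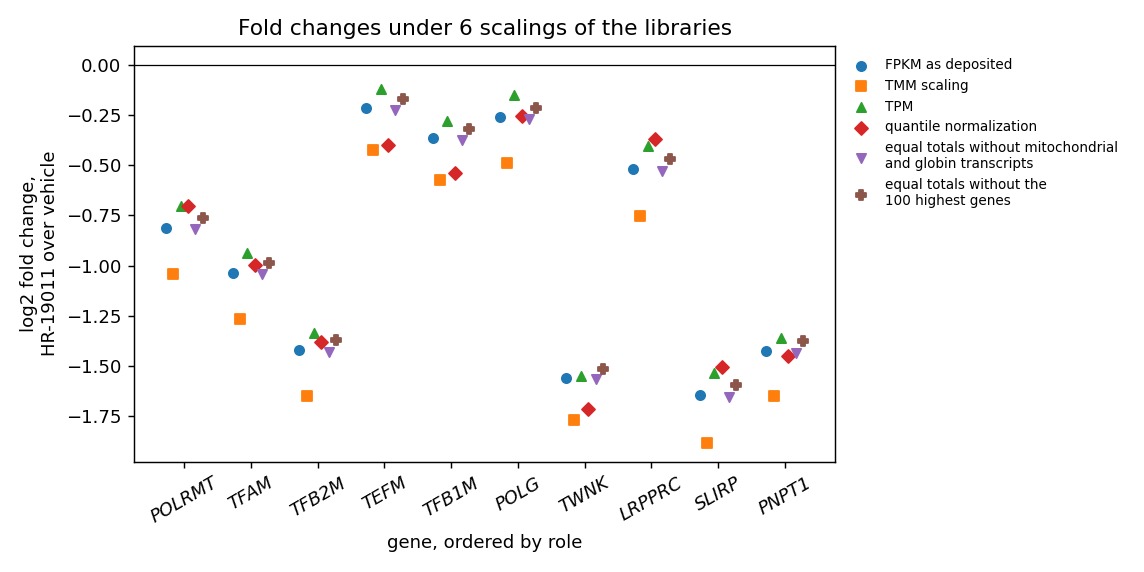
Log2 fold change of FPKM + 1 (or of the rescaled value + 1), HR-19011 over vehicle, for the 10 genes under 6 scalings of the libraries. All points lie below 0; SLIRP spans -1.88 to -1.50 and TEFM -0.42 to -0.12.

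The related gene lists were mostly lower too, apart from nucleotide supply and nuclear regulators. Their counts stand beside 46.4% called higher and 38.0% called lower over all tested genes. Of 12 further genes of mitochondrial DNA replication and maintenance, 8 fell and 2 rose, with a median log2 fold change of -0.52. ENDOG, a mitochondrial nuclease, stood at 7.84 ± 0.491 FPKM in HR-19011 and 18.6 ± 2.098 FPKM in vehicle cells, and the flap nuclease gene FEN1, which also serves nuclear replication, at 47.5 ± 0.679 FPKM in HR-19011 and 88.8 ± 1.63 FPKM in vehicle cells (SD, n = 3 each). The DNA ligase gene LIG3 rose to 17.9 ± 0.7125 FPKM in HR-19011, against 8.57 ± 0.519 FPKM in vehicle cells. The primase-polymerase gene PRIMPOL rose to 7.76 ± 0.324 FPKM in HR-19011, against 4.48 ± 0.251 FPKM in vehicle cells.

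Among 7 accessory factors of mitochondrial transcription, 5 fell and 2 rose (median log2 fold change -0.42). MRPL12, a ribosomal protein that also binds POLRMT, stood at 49.97 ± 2.70 FPKM in HR-19011 and 138 ± 3.57 FPKM in vehicle cells, and MTERF2 at 5.01 ± 0.672 FPKM in HR-19011 and 12.05 ± 1.08 FPKM in vehicle cells (SD, n = 3 each). LONP1, a matrix protease known to degrade TFAM, rose to 130.7 ± 6.20 FPKM in HR-19011, against 73.7 ± 2.94 FPKM in vehicle cells. MTRES1 was also called higher, with a log2 fold change of 0.18 that turned to -0.02 under both TMM scaling and quantile normalization. That call was lost without HR-19011 library 1 (limma adjusted p = 0.0820), HR-19011 library 2 (0.105), vehicle library 1 (0.0707) or vehicle library 2 (0.107).

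RNA processing and modification enzymes fell in 16 of 20 cases and rose in 2, with a median log2 fold change of -0.80. TRMT10C, a subunit of the enzyme that cuts the 5′ ends of mitochondrial transfer RNAs, stood at 7.82 ± 0.432 FPKM in HR-19011 and 26.9 ± 2.17 FPKM in vehicle cells, and the ribosomal RNA methyltransferase gene MRM1 at 4.94 ± 0.402 FPKM in HR-19011 and 14.96 ± 0.674 FPKM in vehicle cells (SD, n = 3 each). MTO1, which modifies transfer RNA wobble bases, rose to 6.12 ± 0.0914 FPKM in HR-19011, against 4.33 ± 0.0402 FPKM in vehicle cells. NSUN3, a transfer RNA methyltransferase gene, was called higher with a log2 fold change of 0.27 that turned to -0.09 under quantile normalization. Of 14 genes of RNA turnover and polyadenylation, 11 fell and 3 rose (median -0.66). TBRG4, a FASTK-family RNA-binding protein gene, fell to 38.7 ± 2.47 FPKM in HR-19011, against 89.0 ± 1.68 FPKM in vehicle cells, and the helicase gene DHX30 to 27.2 ± 0.503 FPKM in HR-19011, against 59.7 ± 1.11 FPKM in vehicle cells. FASTK itself rose to 44.4 ± 1.54 FPKM in HR-19011, against 31.2 ± 1.902 FPKM in vehicle cells, and ANGEL2 had a log2 fold change of 0.22 that turned to -0.03 under quantile normalization.

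Nucleotide supply genes were split, with 4 higher and 4 lower of 9 tested (median log2 fold change 0.09, but -0.14 under TMM scaling and -0.07 with the filter at 5 FPKM). Over all tested genes 46.4% were called higher and 38.0% lower, with a median of 0.07, so this split lies near that of all tested genes. In this list 2 more genes, TYMP and ABAT, were below the filter. Mitochondrial thymidine kinase TK2 rose to 2.95 ± 0.100 FPKM in HR-19011, against 1.05 ± 0.0526 FPKM in vehicle cells, and the carrier gene SLC25A36 to 13.2 ± 0.751 FPKM in HR-19011, against 9.55 ± 0.596 FPKM in vehicle cells (SD, n = 3 each). The pyrimidine nucleotide carrier gene SLC25A33 fell to 7.59 ± 0.132 FPKM in HR-19011, against 13.4 ± 1.12 FPKM in vehicle cells, and the succinyl-CoA ligase subunit gene SUCLA2 to 7.42 ± 0.469 FPKM in HR-19011, against 11.3 ± 0.699 FPKM in vehicle cells. Of 11 tested nuclear regulators of mitochondrial biogenesis, 5 fell and 4 rose (median -0.11, but 0.0146 after conversion to TPM); PPARGC1A was below the filter. PPRC1, a coactivator of the PGC family, fell to 10.9 ± 0.194 FPKM in HR-19011, against 24.5 ± 0.702 FPKM in vehicle cells, and YY1 to 13.5 ± 0.516 FPKM in HR-19011, against 20.4 ± 0.464 FPKM in vehicle cells. GABPB2 rose to 3.15 ± 0.0634 FPKM in HR-19011, against 1.43 ± 0.229 FPKM in vehicle cells, and CREB1 had a log2 fold change of 0.21 that turned to -0.10 under quantile normalization.

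**Figure D5:**
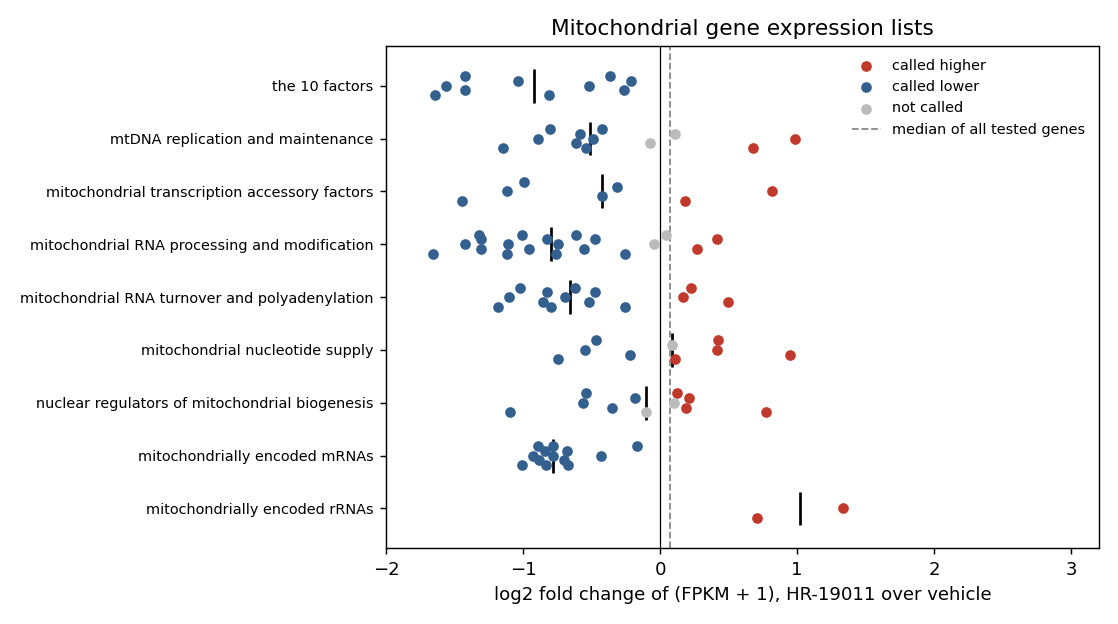
Log2 fold change of FPKM + 1, HR-19011 over vehicle, of each tested gene in 9 lists, coloured by call, with a black bar at each list's median and a dashed line at the median of all tested genes (0.07). The 10 factors and the 13 mitochondrially encoded messengers all lie below 0, and the 2 mitochondrially encoded ribosomal RNAs lie above it.

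The transcripts these factors make and keep moved in both directions. All 13 mitochondrially encoded messengers fell, from -1.01 for ND2 to -0.17 for CYTB on the log2 scale, and the CYTB call was lost after conversion to TPM (log2 fold change -0.04, limma adjusted p = 0.197). Under quantile normalization 11 of the 13 were called lower and the list's median was -0.39, against -0.79 as deposited. The 2 not called there, named after their values were seen, were COX3, whose change came to nil, and ATP6, with a log2 fold change of 0.0148 (limma adjusted p = 0.386). Quantile normalization gives genes of equal rank the same value in every library. COX3 had the highest mean of all tested genes and ATP6 the next highest. The nil change of COX3 was therefore set by the method, which also limits the changes of other top-ranked messengers. ND6, the messenger read from the light strand, stood at 336.6 ± 16.6 FPKM in HR-19011 and 624 ± 20.7 FPKM in vehicle cells (SD, n = 3 each; log2 fold change -0.89). Whether counting used strand is not told, so ND6 values may include RNA read from the other strand. Both ribosomal RNAs of the same genome were called higher. RNR1 stood at 1542 ± 36.3 FPKM in HR-19011 and 610 ± 7.80 FPKM in vehicle cells (SD, n = 3 each; log2 fold change 1.34), and RNR2 at 5824 ± 191 FPKM in HR-19011 and 3559.9 ± 85.5 FPKM in vehicle cells (0.71). Libraries were made from polyadenylated RNA, so these are not taken as levels of all mitochondrial ribosomal RNA. For the messengers too, ND6 included, a change in level cannot be told apart from a change in polyadenylation. The 15 transcripts together took 13.5% ± 0.213 of the summed FPKM in HR-19011 and 19.4% ± 0.529 in vehicle libraries (SD, n = 3 each).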

How the data were processed

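Per the labels' protocols, TRIzol-extracted total RNA with a checked integrity was made into stranded poly(A) libraries. The build GRCh38 and the tools StringTie 2.1.3b, DESeq2 1.24.0, HISAT2 2.1.0, Trimmomatic 0.38, Bowtie2, HISAT and SAMtools 1.9 are listed, with no roles, per the submitters' processing notes. Each deposited table lists FPKM by gene, per the file headers, so the authors had normalized to length and library size. FPKM is relative to each library's total, so it gives no amount per cell. The assignment of reads matching several genes is not described in the sources used.

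Depth could not be had. A search of low values for steps worth 1 read failed: at the best of many steps 29.2% to 35.3% lay within 0.1 of a whole multiple, against 20% by chance for 1 fixed step. No counting interval or count model was therefore used. Libraries of a group shared at most 0.0208% identical nonzero values.

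Sample titles gave the groups. The 11856 genes averaging 1 FPKM or more were compared two-sided as log2(FPKM + 1) by limma 3.58.1 (R 4.3.3). The model held group alone with trended variances, and p-values were Benjamini-Hochberg adjusted across these genes, with calls at 0.05. A change given as n-fold is the ratio of mean FPKM values. The members and lists were chosen with earlier results of these data known. Genes named are the members, 4 partners, the 2 highest and 2 lowest called genes of each related nuclear list, and 3 mitochondrial messengers; exceptions are said in place. Neighbouring genes and pseudogenes were taken by position (RefSeq on GRCh38.p14, and GENCODE 29) and symbol after the files were seen. Alternatives tried: a pseudocount of 0.1 or 5, dropping the filter or raising it to 5 FPKM, TMM, TPM (filtered at 1 TPM), quantile normalization, 2 sets of equal totals, untrended variances, replicate number entered as a block, a threshold of 0.01, and each library left out.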

Additional observations from a re-analysis of the deposited data

How the results depend on the processing

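Of the 10 factors, 9 kept their direction and their call under all 18 alternatives, and TEFM kept its direction in all of them but lost its call in 8. Between 9 and 10 members were called lower under every alternative, and between 9 and 10 when each library was left out. Counts of higher genes were the least stable. Without a filter 8828 genes were called higher, and with the filter raised to 5 FPKM 3347 were, against 5506 as reported; fewer or more genes enter those tests. Among transcription accessory factors, 1 gene instead of 2 was higher without a filter, under TMM, under quantile normalization, at a threshold of 0.01 and with the replicate number as a block, and 1 to 2 with a library left out; with the filter at 5 FPKM 3 instead of 5 were lower, because fewer genes were tested. Among RNA processing genes 1 instead of 2 was higher with that filter, under TMM and under quantile normalization. Among RNA turnover genes 1 instead of 3 was higher under TMM. Among nuclear regulators 2 instead of 4 were higher with that filter and under quantile normalization, and 1 under TMM. The median of the accessory factors, -0.42 as reported, was -0.69 under quantile normalization, -0.99 with the filter at 5 FPKM and -0.23 with a pseudocount of 5, and that of the mitochondrially encoded messengers, -0.79 as reported, was -0.39 under quantile normalization. Several of these messengers, COX3 first, stand at the top of the ranking, where that method gives equal ranks equal values. Signs turned for MTRES1 (-0.0202 under TMM and -0.0158 under quantile normalization), and under quantile normalization for NSUN3 (-0.0881), ANGEL2 (-0.0258) and CREB1 (-0.10). The cause was not tested.

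Replicate numbers gave no pairing: deviations of same-numbered libraries correlated at -0.03, -0.00448 and -0.11. With the replicate number as a block 9880 genes were called, against 10009 without it, and all 10 factors were still lower. Depth is unknown, so what it limits cannot be stated for single genes. Only RNA was measured, at 1 dose and 1 time, so nothing here gives the amounts of the proteins, of mitochondrial DNA or of newly made mitochondrial RNA.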
